A study of Mus musculus with 12 samples.

Results

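Transcription factors that set the identity of sensory neurons were followed in tongue-innervating trigeminal ganglion (TG) neurons of mice with and without a tongue tumor. They were chosen by gene symbol and comprised 9 genes, Isl1, Pou4f1, Pou4f2, Pou4f3, Runx1, Runx3, Tlx3, Klf7 and Etv1, of 22609 gene symbols counted. All 9 passed the filter on low counts and were tested in each comparison. WGA-AF488, a fluorescent lectin carried back to the ganglion from the axons that bind it, was injected in the tongue on day 13, and bright cells were flow sorted from dissociated ganglia on day 15. The RNA of 12 pools of sorted cells was sequenced. Normal males (MN), males with a tumor (MT), normal females (FN) and females with a tumor (FT) gave 3 pools each.

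All groups were Balb/c athymic nude mice, 6 to 8 weeks old according to the methods, which lack a thymus and so most T cells. The MT and FT groups carried a tumor of HSC3 cells, an established human line from an oral squamous carcinoma, in the tongue. For the MN and FN groups the labels give no injected cells, whereas the methods give human oral keratinocytes. The WGA solution was 0.5% according to the labels and 1% according to the methods. A normal sample pooled 4 ganglia from 2 mice, and a tumor sample pooled 4 ipsilateral ganglia from 4 mice, so that pooling differed between normal and tumor groups. The values are of pools of sorted cells, in which fewer cells of a type and less RNA per cell cannot be told apart.

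Sensory neurons are specified in steps, and transcription factors that act late in development are kept in the adult to hold the identity of each class of neuron. Isl1, a LIM homeodomain factor, and Pou4f1 (Brn3a), a POU homeodomain factor, act together across most sensory neurons and turn off earlier neurogenic genes. Runx1, Runx3, Tlx3, Klf7 and Etv1 act in narrower sets of neurons or on single receptor genes, with Runx1 and Tlx3 known from nociceptors and Runx3 and Etv1 from proprioceptors and mechanoreceptors.

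Between 4592891 and 8922011 reads per library were counted on genes. The other 76.3% to 88.8% of reads, multiply mapped ones included, were not counted on a gene. A count of 3, taken as the limit of detection, corresponded to 0.336 to 0.653 CPM, which scales the counts of a library by its reads on genes. FN replicate 2, FT replicate 2 and FT replicate 3 stood apart from the other 9 libraries. Their highest Spearman rho with any of those 9, over 13710 genes, was 0.847, 0.805 and 0.906, whereas the lowest among the 9 was 0.970. The genes are not independent replicates, so this is a description of the libraries. Each comparison is given with all 12 libraries and with the 9, in which FT has 1 library that was assumed to vary like the other groups. The 16 sensory neuron markers summed to between 22225 and 33352 CPM in every library, so the labelled cell type was present throughout. Single markers did not all follow the sum. Trpv1 was at 11.4, 5.44 and 35.1 CPM in FN replicate 2, FT replicate 2 and FT replicate 3, against 150 to 263 CPM in the 9. Calca was at 11272, 3242 and 7157 CPM in the same order, against 3295 to 4589 CPM in the 9. Of 14 T and NK cell markers, 9 were at 3 counts or fewer in every library, among them Cd3e and Ncr1.

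Levels per length, as RPKM, which is CPM divided by exon length in kilobases, spanned a wide range among the transcription factors. In order of mean RPKM over 12 libraries they were Pou4f1 (111), Isl1 (86.0), Klf7 (34.1), Pou4f3 (15.8), Tlx3 (9.21), Runx1 (6.19), Etv1 (3.25), Pou4f2 (1.12) and Runx3 (0.631). Of the 8 pairs of neighbours in this order, only Klf7 and Pou4f3, Runx1 and Etv1, and Etv1 and Pou4f2 had ranges that did not overlap. Pou4f1 was above Isl1 in 11 of 12 libraries. Tlx3 was above Runx1 in 4 of 12, and its median RPKM of 4.56 was below the 6.39 of Runx1. FN replicate 2 and FT replicate 2 held 43.5 and 22.9 RPKM of Tlx3.

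**Figure D1:**
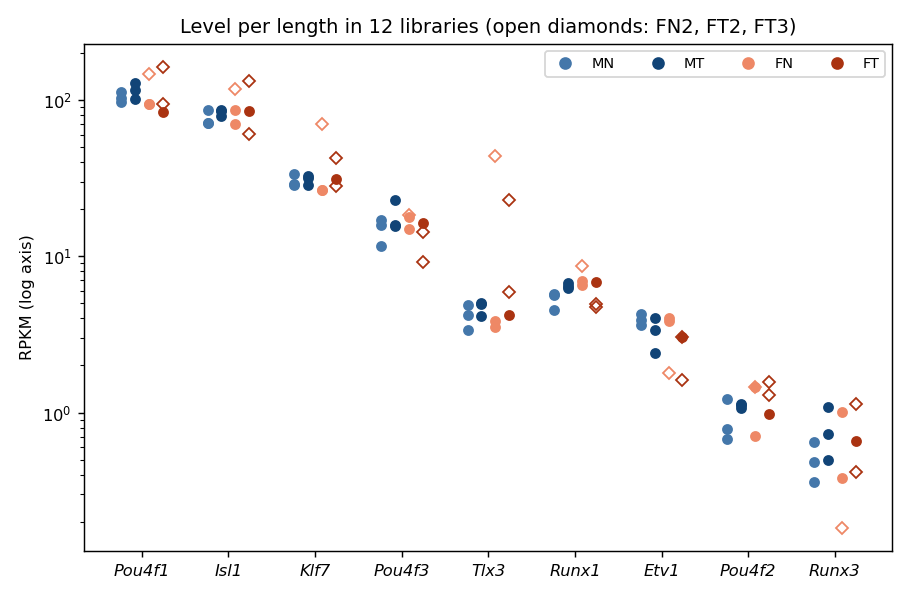
RPKM of each transcription factor (y axis, log scale) in each of the 12 libraries, coloured by group, with open diamonds for the 3 libraries that stood apart. Pou4f1 and Isl1 lay between 60.6 and 162 RPKM in every library, while Pou4f2 and Runx3 lay at 1.56 RPKM or below.

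Pou4f1 (chromosome 14, 104862737 to 104867216 of mm9) is the broad POU factor of sensory ganglia. It had 289, 319 and 273 CPM in MN, 362, 328 and 286 in MT, 265, 411 and 265 in FN and 235, 266 and 459 in FT. The group means were 294 ± 23.3 in MN, 325 ± 38.0 in MT, 314 ± 84.5 in FN and 319.9 ± 121 in FT (SD, n = 3). The groups overlapped in each comparison, and the highest values were those of FN replicate 2 and FT replicate 3. Pou4f1 held 80.9% to 91.1% of the summed RPKM of Pou4f1, Pou4f2 and Pou4f3.

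Isl1 (chromosome 13, 117088478 to 117099896), the partner of Pou4f1 in most sensory neurons, had 218, 180.3 and 179 CPM in MN, 214, 219 and 199.9 in MT, 178, 298 and 218 in FN and 214, 153 and 336 in FT. Means were 192 ± 21.9, 211 ± 9.80, 231 ± 61.0 and 234 ± 93.0 CPM (SD, n = 3) in the same order. Over the 9 libraries Isl1 varied by 1.23 times from lowest to highest, against 2.19 times over all 12.

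Pou4f3 (Brn3c), best known from hair cells and mechanosensory neurons, had 19.5, 13.2 and 18.2 CPM in MN, 17.9, 18.2 and 26.2 in MT, 17.1, 21.1 and 20.5 in FN and 18.7, 10.5 and 16.5 in FT. Pou4f2 (Brn3b), best known from retinal ganglion cells, had 2.53, 3.92 and 2.18 CPM in MN, 3.65, 3.61 and 3.46 in MT, 2.26, 4.70 and 4.66 in FN and 3.15, 4.14 and 5.02 in FT. Groups overlapped for both genes in every comparison. Pou4f2 rested on 18 to 36 counts per library, and its coefficient of variation over the 9 libraries was 25.1%, against 19.8% from counting alone.

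Klf7 (chromosome 1, 64076021 to 64168856), a zinc finger factor of the Krüppel-like family, had 273, 231 and 234 CPM in MN and 267, 259 and 232 in MT. It had 217, 569 and 215 CPM in FN and 252, 229.7 and 344 in FT. FN replicate 2 was the highest of all and the other FN libraries were the lowest of all, so that the FN mean was 334 ± 204 CPM (SD, n = 3). By annotation, exons of Klf7 overlap those of Gm13748 and Gm17427, and those of Runx1 overlap Gm16801. None of these 3 genes was in the count tables, and the strand setting of the counting is not given in the sources used here.

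Runx1 (chromosome 16, 92601712 to 92826311), which sets receptor and ion channel genes of nonpeptidergic nociceptors, had 44.7, 35.5 and 44.2 CPM in MN and 50.6, 49.0 and 52.8 in MT. It had 51.2, 68.0 and 54.5 CPM in FN and 53.6, 38.3 and 36.7 in FT. Every MT and every FN library was above every MN library. FT replicate 1 was also above them, while FT replicates 2 and 3 lay within the range of MN. Means were 41.5 ± 5.15 in MN, 50.8 ± 1.92 in MT, 57.9 ± 8.899 in FN and 42.9 ± 9.35 CPM in FT (SD, n = 3).

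Runx3 (chromosome 4, 134676567 to 134733905), known from proprioceptors, had 3.23, 1.79 and 2.41 CPM in MN and 3.65, 5.42 and 2.47 in MT. It had 5.03, 0.913 and 1.92 CPM in FN and 3.29, 5.66 and 2.09 in FT, and all groups overlapped. These values rested on 7 to 40 counts per library, and their coefficient of variation over the 9 libraries was 39.6%, against 20.0% from counting alone. Runx1 held 76.9% to 93.6% of the summed RPKM of Runx1, Runx2 and Runx3.

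Runx1 and Runx3 each have a promoter in which the Runx core motif, ACCACA, stands at 2 places on 1 strand with starts 8 bases apart. The stretches are shown because they are the sequence that these 2 members shared, with the motif in capitals (RefSeq, GRCm38.p6, whose coordinates differ from those of mm9). The Runx1 stretch is chr16:92826025-92826054, minus strand, from 20 to 49 bases after an annotated start, and the Runx3 stretch is chr4:135120504-135120533, plus strand, from 141 to 112 bases before one.
Runx1: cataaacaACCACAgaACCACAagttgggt
Runx3: tccctcaACCACAgaACCACAaggccaggc
A common run of 18 bases lay within both stretches, and 4 promoters of 4 genes held it. Promoters were taken from 250 bases before to 50 after each start, for 32851 promoters, and both strands were searched. ACCACA was in 16.8% of them and in 3 of 11 promoters of 8 members, whereas 2 copies on 1 strand within 12 bases were in 35 promoters of 34 genes (0.107%).

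Tlx3 (chromosome 11, 33100752 to 33103588), a homeobox factor that directs glutamatergic over GABAergic fate and acts with Runx1 in nociceptors, had the widest range of the 9. It had 5.20, 7.51 and 6.43 CPM in MN, 7.67, 6.39 and 7.53 in MT, 5.41, 66.7 and 5.89 in FN and 6.45, 35.1 and 9.06 in FT. In the 9 libraries it stayed between 5.20 and 7.67 CPM, with a coefficient of variation of 14.1% against 14.0% from counting alone. FN replicate 2 was 10.4 times the median of those 9, FT replicate 2 was 5.45 times and FT replicate 3 was 1.41 times.

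The bases before the annotated start of Tlx3 are shown because this gene differed most between libraries (RefSeq, GRCm38.p6, chr11:33203589-33203838, minus strand, the start itself not included). The capitals mark CCAAT boxes.
Tlx3: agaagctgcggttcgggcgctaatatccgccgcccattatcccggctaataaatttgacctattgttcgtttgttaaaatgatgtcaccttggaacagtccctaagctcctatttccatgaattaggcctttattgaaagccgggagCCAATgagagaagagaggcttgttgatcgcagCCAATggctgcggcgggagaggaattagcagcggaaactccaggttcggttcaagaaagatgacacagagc
CCAAT, searched on both strands, was in 37.4% of promoters and in 6 of the 11. The Klf and Sp box CACCC was in 57.5% and in 7 of the 11, and Tlx3 held none in this window. A match is a description of the letters and not a measured site.

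Etv1 (chromosome 12, 39505967 to 39594802), an ETS factor of proprioceptors, had 23.1, 25.3 and 21.5 CPM in MN and 19.7, 14.2 and 23.7 in MT. It had 22.6, 10.6 and 23.7 CPM in FN and 17.8, 9.58 and 17.99 in FT. MN overlapped with MT and FN, and FT with MT and FN, while every FT library was below every MN library, a pair that differs in both sex and tumor and was not tested. The lowest values were those of FT replicate 2 and FN replicate 2, at 0.423 and 0.467 times the median of the other 9 libraries.

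**Figure D2:**
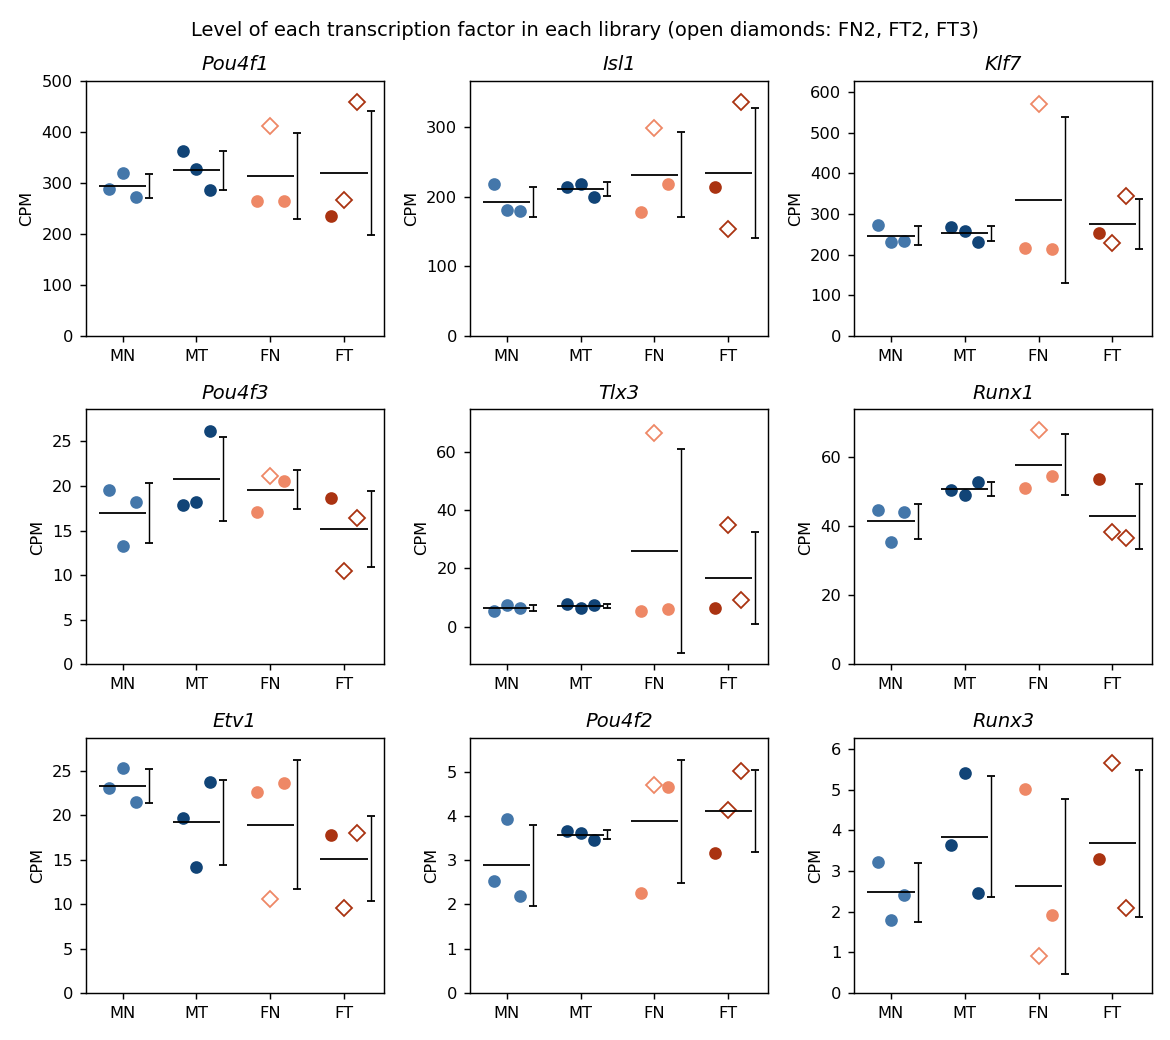
CPM of each transcription factor (y axis, linear) in the groups MN, MT, FN and FT, with a point for each library, a line for the mean, a bar for the SD beside it (n = 3) and open diamonds for the 3 libraries that stood apart. Tlx3 in FN replicate 2 (66.7 CPM) and FT replicate 2 (35.1 CPM) lay far above the rest.

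The comparison of FN with MN asked how lingual neurons of the sexes differ without a tumor. With edgeR, a quasi-likelihood test with Benjamini-Hochberg adjustment over 13360 genes, 0 of 9 transcription factors passed an adjusted p of 0.05, as did 0.0% of all genes. At an unadjusted p under 0.05 there was 1 (5.57% of genes), and DESeq2 and limma-voom likewise called 0 (0.15% and 5.99% of genes), with 1 each at an unadjusted p under 0.05 (7.3% and 21.1% of genes). Tlx3 had a log2 fold change of 2.33 (SE 0.95, unadjusted p = 0.0279, edgeR adjusted p = 0.809). The study's criteria were an RPKM mean over 5 in one of the groups compared, a change of over 1.5 times and an unadjusted p under 0.05. Tlx3 was the 1 member to meet them here, with 3.69% of genes. In MT versus MN, FT versus FN and FT versus MT 0 of 9 met them (0.152%, 2.17% and 8.14% of genes), as in the sex difference and the mean of the tumor effect (0.614% and 0.499% of genes). FN replicates 1 and 3 lay within the range of MN, and over the 9 libraries the log2 fold change of Tlx3 was -0.23 (SE 0.27, edgeR adjusted p = 0.724). In that fit edgeR called 0 of 9 (0.391% of genes), with 1 at an unadjusted p under 0.05 (15.2% of genes), which was Runx1.

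Over 12 libraries Runx1 was the only one of the 9 without overlap between FN and MN. This state was shown by 9.66% of genes with FN higher and 10.2% with FN lower. Over the 9 libraries Klf7 and Pou4f1 were lower in FN without overlap (1889 of 13826 genes), and Runx1 was higher (3195 genes). Its log2 fold change was 0.62 (SE 0.32, unadjusted p = 0.0711, edgeR adjusted p = 0.809) over 12 libraries and 0.30 (SE 0.13, unadjusted p = 0.0367, edgeR adjusted p = 0.294) over the 9. Sums of some lists of markers of other cell types were also higher in FN. The 16 macrophage markers summed to 25.1 to 35.9 CPM in MN and 149 to 342 CPM in FN, and 9 of the 16 were higher in FN without overlap. Sums of satellite glia markers were 4232 to 5039 CPM in MN and 8284 to 16528 CPM in FN, with 2 of 10 genes higher without overlap. Apoe, 1 of these 2, made up most of the sums, at 3280 to 3968 CPM in MN and 6516 to 15599 CPM in FN. Sums of fibroblast markers were 272 to 351 and 480 to 546 CPM, with 1 of 10 genes higher without overlap. For neutrophils, T and NK cells, myelinating Schwann cells, endothelial cells and pericytes the sums overlapped between FN and MN. Runx1 is also expressed in blood cells, and the part of other cell types in its level was not tested. MT replicates 1 and 2 had macrophage sums of 15.1 and 26.4 CPM, within or below those of MN, with Runx1 at 50.6 and 49.0 CPM, above every MN library. MT replicate 3 had a macrophage sum of 219 CPM and Runx1 at 52.8 CPM, the highest of MT in both.

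Isl1, Pou4f1 and Klf7 had log2 fold changes of 0.42, 0.25 and 0.64 in FN against MN over 12 libraries, and of -0.01, -0.20 and -0.24 over the 9. The interval of the difference for Isl1 in the 9 libraries was -0.29 to 0.27 on the log2 scale (95%). The median over the 9 transcription factors was 0.42, against 0.07 over all genes, and it was -0.01 against 0.00 over the 9 libraries.

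In MT against MN, the effect of the tumor in males, edgeR called 0 of 9 among 13835 genes (0.0% of genes), with 0 at an unadjusted p under 0.05 (0.426% of genes). DESeq2 called 0 (2 of 13835 genes), with 0 at an unadjusted p under 0.05 (69 genes). Limma-voom called 0 (0.34% of genes), with 3 at an unadjusted p under 0.05 (11.3% of genes), namely Runx1, Runx3 and Etv1. None of the 6 libraries was among those that stood apart. Runx1 was again the only one without overlap (5.8% of genes with MT higher and 7.32% with MT lower), with a log2 fold change of 0.31 (SE 0.32, edgeR adjusted p = 1.00) in the 12-library fit and of 0.31 (SE 0.11, unadjusted p = 0.0186, edgeR adjusted p = 0.613) in the fit of 9. There edgeR called 0 (0.0209% of genes), with Runx1 the 1 member at an unadjusted p under 0.05 (7.25% of genes). This comparison and FN versus MN share the MN libraries, and so do not give independent values for Runx1. Runx3 had a log2 fold change of 0.66 (SE 0.62) and Etv1 of -0.26 (SE 0.34), neither past the threshold. In the 9 libraries the 95% intervals were -0.10 to 0.40 for Isl1, -0.08 to 0.42 for Pou4f1 and -0.17 to 0.28 for Klf7.

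**Figure D3:**
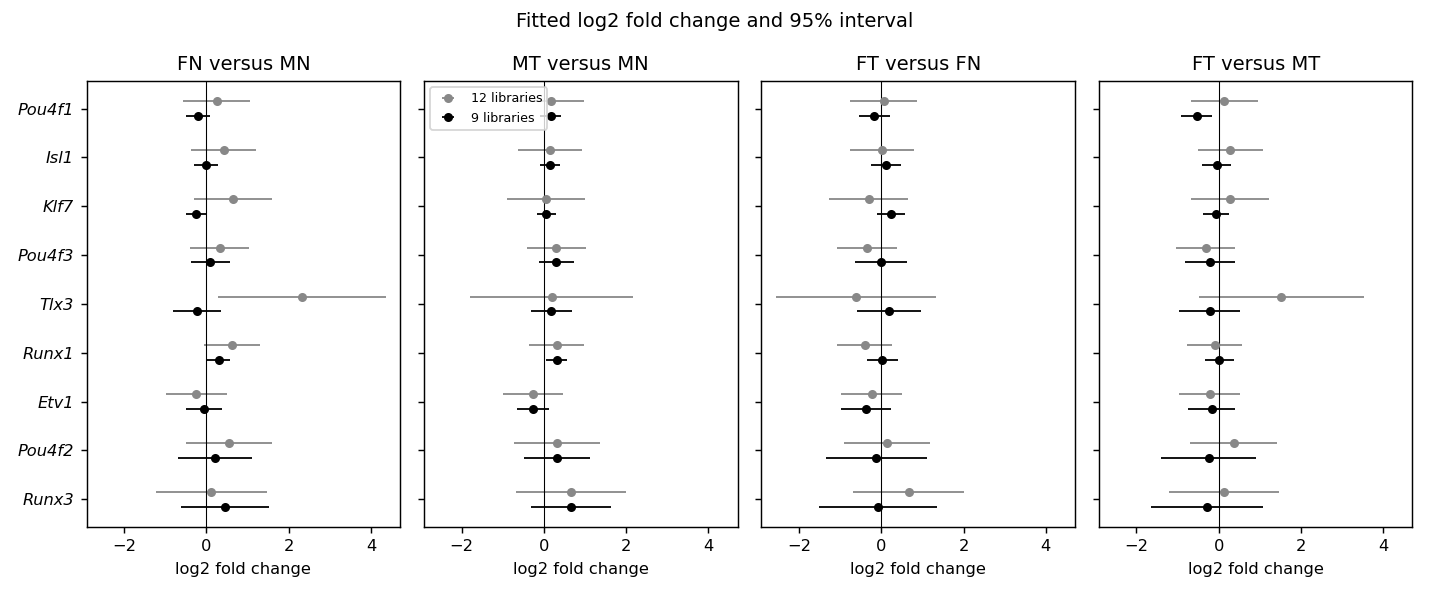
Fitted log2 fold change (x axis) of each transcription factor in 4 comparisons, first group against second, with 95% intervals, over 12 libraries (grey) and over the 9 libraries left when those that stood apart are taken out (black). In FN versus MN and MT versus MN the intervals are narrower over the 9 libraries, and Tlx3 in FN versus MN moves from 2.33 to -0.23.

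In FT against FN, the effect of the tumor in females, edgeR, DESeq2 and limma-voom each called 0 of 9 (edgeR 0.0% of genes). Each had 0 of 9 at an unadjusted p under 0.05 (edgeR 3.82% of genes). Of 13835 genes, DESeq2 and limma-voom each called 0, with 682 and 564 at an unadjusted p under 0.05. Log2 fold changes ran from -0.62 for Tlx3 to 0.66 for Runx3. All 9 overlapped between the groups (1.22% of genes were without overlap with FT higher and 1.26% with FT lower). Over the 9 libraries, where FT was FT replicate 1 alone, log2 fold changes ran from -0.37 for Etv1 to 0.23 for Klf7, with 0 called (0.0% of genes) and 0 at an unadjusted p under 0.05 (4.66% of genes).

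In FT against MT the 3 tests again called 0 of 9 (edgeR 0.0% of genes), with 0 at an unadjusted p under 0.05 (edgeR 12.1% of genes). Of 13360 genes, DESeq2 called 249 and limma-voom 0, with 1997 and 1205 at an unadjusted p under 0.05. All 9 overlapped between the groups (8.03% of genes were without overlap with FT higher and 9.61% with FT lower). Tlx3 had a log2 fold change of 1.52 (SE 0.94, edgeR adjusted p = 0.477) over 12 libraries and -0.22 (SE 0.33, edgeR adjusted p = 0.906) over the 9. Pou4f1 had 0.13 (SE 0.38) over 12 and -0.54 (SE 0.17, unadjusted p = 0.00847, edgeR adjusted p = 0.462) over the 9, where the 1 FT library was at 235 CPM, below the 3 MT libraries. In that fit 0 were called (0.00723% of genes), and Pou4f1 was the 1 member at an unadjusted p under 0.05 (8.27% of genes). The sex difference in the tumor effect, and the tumor effect as a mean of both sexes, gave 0 calls among the 9 by edgeR, DESeq2 and limma-voom. Each had 0 of 9 at an unadjusted p under 0.05 (edgeR 1.47% and 1.12% of genes). Of 13835 genes, DESeq2 called 0 and 1, with 283 and 215 at an unadjusted p under 0.05. Limma-voom called 0 in both, with 660 and 786. For Runx1 the sex difference was -0.72 (SE 0.45, edgeR adjusted p = 1.00) on the log2 scale over 12 libraries and -0.28 (SE 0.21, edgeR adjusted p = 0.959) over the 9. Over the 9 libraries the sex difference ran from -0.74 for Runx3 to 0.18 for Klf7 and the mean tumor effect from -0.32 for Etv1 to 0.29 for Runx3, each with 0 called by edgeR (0.0% of genes) and 0 at an unadjusted p under 0.05 (5.1% and 6.22% of genes).

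The 3 libraries that stood apart were compared with the range of the other 9, gene by gene and without a test. In FN replicate 2, 8 of the 9 transcription factors lay outside that range, and in FT replicate 2 and FT replicate 3, 5 each. Among 13659 genes with a mean of at least 1 CPM in the 9 libraries, 78.3%, 79.8% and 71.7% lay outside it. The members' shares are therefore to be read against a majority of all genes. More than 2-fold from the median of the 9 libraries were 4, 2 and 0 of the 9 transcription factors in the same order of libraries (44.4%, 22.2% and 0.0%), against 51.4%, 53.2% and 32.1% of all genes tested.

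Tlx3 led this departure in FN replicate 2, where 7 genes, Tlx3 included, reached its ratio to the median of the 9. In FT replicate 2, 428 did. Klf7 was 2.43 times the median in FN replicate 2 and 0.980 times in FT replicate 2, whereas Runx3 was 0.282 times and 1.75 times. The other libraries' sensory neuron sums of 22337 to 27727 CPM compared with 33352, 22225 and 32394 CPM for FN replicate 2, FT replicate 2 and FT replicate 3. Satellite glia markers, 10 in all, summed to 3587 to 8382 CPM in the 9 libraries and to 16528, 7973 and 18056 CPM for these libraries in the same order. Apoe made up most of each sum, with 2730 to 6547 CPM in the 9 libraries and 15599, 7135 and 15893 CPM in these. The other markers of the list did not all rise with it. In FN replicate 2, Cdh19 was at 13.2 CPM, against 43.7 to 116 CPM in the 9. Sox2 was at 9.92 CPM there, against 1.53 to 6.41 CPM. Tlx3 has an exon GC content of 67.3%, at percentile 99.8 of the genes, and an exon length of 1532 bases, at percentile 10.8. Across genes, Spearman rho of the ratio with GC content was 0.137, 0.089 and 0.168 in FN replicate 2, FT replicate 2 and FT replicate 3, and with length -0.415, 0.005 and -0.505. Multiply mapped reads were 56.0%, 68.4% and 52.6% of all reads in FN replicate 2, FT replicate 2 and FT replicate 3, against 43.0% to 45.5% in the 9 libraries. Reads not counted on a gene were 82.0%, 88.8% and 81.0% in the same order, against 76.3% to 79.1%. These shares include the multiply mapped reads, and so are not a separate departure. The part of read mapping, GC content, length and glia in the Tlx3 values was not tested.

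**Figure D4:**
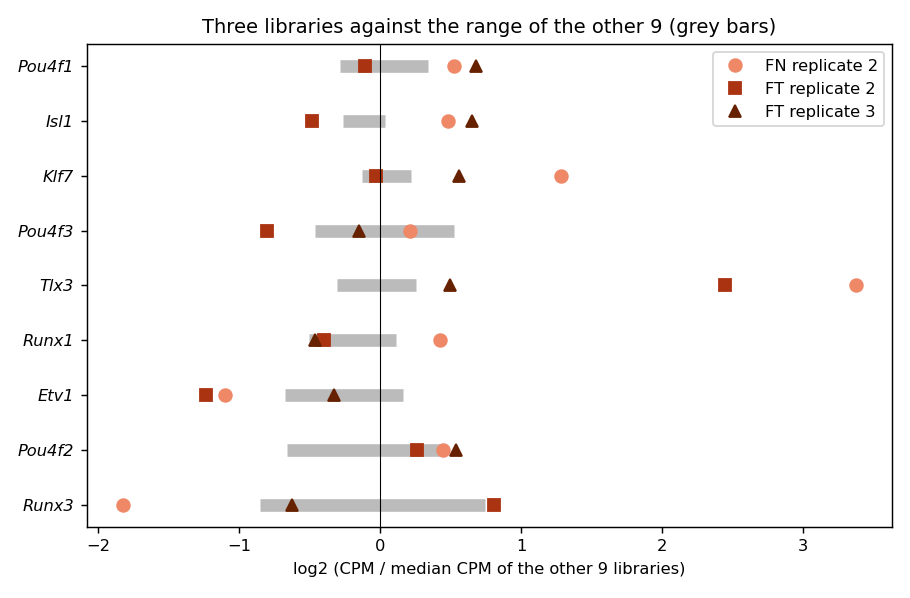
Log2 ratio of CPM to the median of the other 9 libraries (x axis) for each transcription factor in FN replicate 2 (circles), FT replicate 2 (squares) and FT replicate 3 (triangles), with grey bars for the range of the 9. Tlx3 lies at 3.38 and 2.45 in FN replicate 2 and FT replicate 2.

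Tlx2, the close relative of Tlx3, gave most of the RPKM summed over Tlx1, Tlx2 and Tlx3. Tlx3 held 3.60% to 6.34% of this sum in the 9 libraries and 25.6%, 29.7% and 5.07% for FN replicate 2, FT replicate 2 and FT replicate 3. Tlx2 was at 116 to 144 CPM in the 9 libraries and at 201, 86.2 and 176 CPM in FN replicate 2, FT replicate 2 and FT replicate 3. Tlx1 had 0 to 2 counts in each library.

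The genes whose profile over 12 libraries was most like that of each member were found by the root-mean-square (RMS) difference of centred log2 CPM among 13835 genes. For Tlx3 they were Ptov1 (RMS 0.263) and Hras1 (RMS 0.271), both highest in FN replicate 2 and next in FT replicate 2. Ptov1 was at 633 and 369 CPM there and at 69.9 to 90.8 CPM in the 9 libraries. Over the 9 libraries alone Ptov1 ranked 5551 and Hras1 2348 in likeness to Tlx3. For the others the closest were Tssc1 for Isl1 (RMS 0.079), Pak1ip1 for Pou4f1 (0.128), Mfsd5 for Klf7 (0.083), Hnrpdl for Runx1 (0.158), Zfp358 for Pou4f3 (0.157), Tmem206 for Etv1 (0.133), Kctd15 for Pou4f2 (0.225) and Rprd2 for Runx3 (0.305), all values RMS. Over the 9 libraries alone, the ranks of these genes ran from 8 (Tssc1) to 417 (Pak1ip1), and another gene was closest to each member.

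Related genes were taken from 5 lists of 90 genes in all, and with edgeR over 12 libraries 0 of the 78 tested were called in any of the 6 comparisons (0.0% of genes in each). At an unadjusted p under 0.05 there were 4 in FN versus MN (5.57% of genes), 0 in MT versus MN (0.426%), 7 in FT versus FN (3.82%) and 8 in FT versus MT (12.1%). There were 2 in the sex difference (1.47%) and 2 in the mean tumor effect (1.12%). DESeq2 called 3, in FT versus MT (Lmo4, Met and Onecut1), where it called 1.86% of genes. Limma-voom called 5 in FN versus MN (5.99% of genes) and 1 in MT versus MN (0.34% of genes). Protein partners bind the factors, and Cbfb, the common partner of Runx proteins, had mean CPM of 198 in MN, 231 in MT, 196 in FN and 137 in FT. Lmo4, which competes for LIM cofactors, lay between 25.7 and 39.0 CPM in the 9 libraries and reached 295 CPM in FT replicate 2. Of the 15 partners, 1 was higher and 0 lower at an unadjusted p under 0.05 in FN versus MN, and the same count was found in the 9 libraries.

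Reported target genes of these factors, 22 in all, were tested in full. In FN versus MN 1 was higher (Tac1) and 0 were lower at an unadjusted p under 0.05 (5.57% of genes). In the 9 libraries 1 was higher and 8 were lower (15.2% of genes in both directions together), with 0 called by edgeR in both. Of the 5 related genes that limma-voom called in this comparison, 3 were on this list, Mrgprb5, Ret and Scn11a, and DESeq2 called 0. The list's median log2 fold change was -0.44 over 12 libraries, against 0.07 over all genes, and -0.37 against 0.00 over the 9. Of 16 sensory neuron markers, 5 were lower and 1 was higher in FN than in MN without overlap. Sums of macrophage, satellite glia (mostly Apoe) and fibroblast markers were higher in FN without overlap, as given beside Runx1. Sums of the other lists overlapped. The part of other cell types in these values was not tested. Ret, the GDNF family receptor that Runx1 acts on in nonpeptidergic nociceptors, had a mean of 879 CPM in MN and 463 CPM in FN, without overlap. Its log2 fold change was -0.91 (SE 0.46, edgeR adjusted p = 0.809) over 12 libraries and -0.56 (SE 0.12, edgeR adjusted p = 0.0672) over the 9. Avil, which codes for an actin-binding protein of sensory neurons, had -0.74 (SE 0.47, edgeR adjusted p = 0.809) and -0.36 (SE 0.09, edgeR adjusted p = 0.115), also without overlap. Mrgprd, which Runx1 is needed for, had -0.82 (SE 0.47, edgeR adjusted p = 0.809) and -0.48 (SE 0.15, edgeR adjusted p = 0.179).

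Tac1 and Calca, the precursors of the neuropeptides substance P and CGRP, had log2 fold changes in FN versus MN of 1.34 (SE 0.50, edgeR adjusted p = 0.809) and 1.02 (SE 0.49, edgeR adjusted p = 0.809) over 12 libraries. Over the 9 they were 0.30 (SE 0.12, edgeR adjusted p = 0.276) and 0.05 (SE 0.12, edgeR adjusted p = 0.897). FN replicate 2 held 2910 CPM of Tac1 and 11272 CPM of Calca, against at most 1168 and 4589 CPM in the 9. In MT versus MN the median of the list was -0.22, against 0.01 over all genes, and Ret had -0.29 (SE 0.45, edgeR adjusted p = 1.00).

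Among 29 other sensory neuron transcription factors, 25 were tested. The most abundant was Isl2, the relative of Isl1, at 365 to 433 CPM in the 9 libraries and at 537, 103 and 455 CPM in FN replicate 2, FT replicate 2 and FT replicate 3. The median log2 fold change of this list in FN versus MN was -0.34 over 12 libraries and -0.20 over the 9. Among 14 family relatives, 13 were tested. Klf6 had a log2 fold change of 1.02 (SE 0.43, edgeR adjusted p = 0.809) in FN versus MN and 0.56 (SE 0.42, edgeR adjusted p = 1.00) in MT versus MN, without overlap in both, and these comparisons share the MN libraries. Of 10 early developmental regulators, a class of genes that Isl1 and Pou4f1 turn off, 3 passed the filter over 12 libraries. Neurod1, one of them, was at 0.972 to 3.56 CPM in the 9 libraries and at 17.4 CPM in FT replicate 2.

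**Figure D5:**
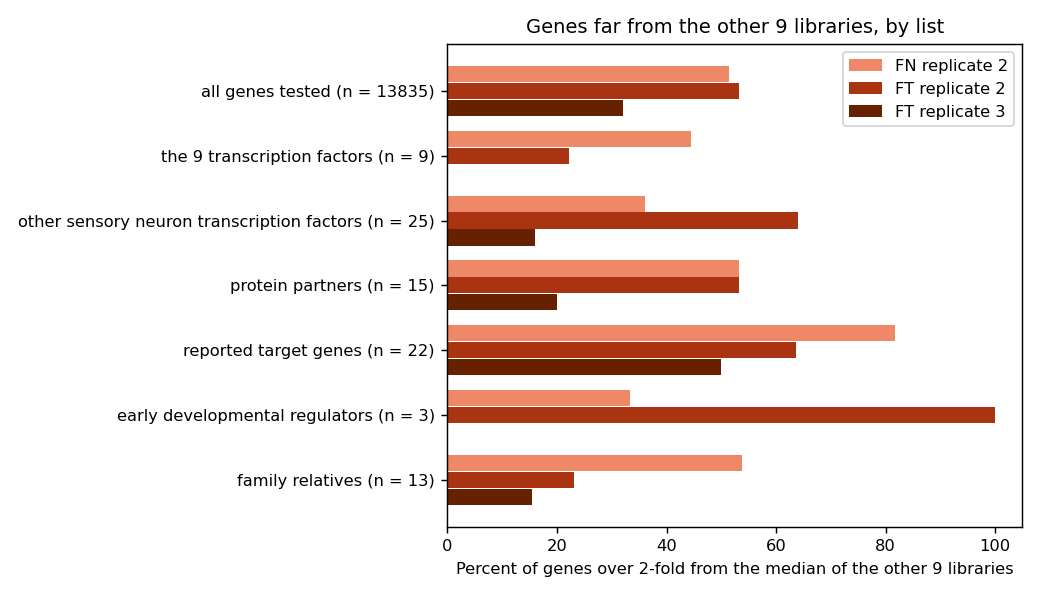
Percent of the genes of each list (y axis, with the number tested) that lay over 2-fold from the median of the other 9 libraries (x axis), in FN replicate 2, FT replicate 2 and FT replicate 3. Reported target genes stood at 81.8%, 63.6% and 50.0%, the 9 transcription factors at 44.4%, 22.2% and 0.0%, and all genes at 51.4%, 53.2% and 32.1%.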

How the data were processed

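From SMART-seq2 libraries the authors obtained single-end reads of 50 bases, which TopHat2 placed on mm9 and HTSeq counted (submitters' processing notes also name CASAVA 1.8.2 and SAMtools). Other versions, the annotation and the strand setting are not given in the sources used here. The authors deposited raw whole counts for 22609 symbols. Rows that name no gene were left out.

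CPM used reads counted on genes, and RPKM exon lengths of GENCODE M1 (21627 symbols, 95.7%). The main model was that of edgeR 4.0.16 (R 4.3.3), with TMM, filterByExpr (minimum count 10, total 15), 4 group means and a quasi-likelihood test, adjusted over all genes. Comparisons between the sexes omitted X and Y genes. Alternatives were DESeq2 1.42.0, limma-voom (limma 3.58.1), other scalings, filters and sets of libraries. The scripts were tested on simulated counts, with 200 genes changed in FT, 100 of them 4-fold and the rest 2-fold. With the spread of all 12 libraries, edgeR called 25 of the 4-fold and 0 of the 2-fold changes in FT versus FN. With the spread of the 9 libraries, and still 3 libraries per group, it called 99 and 83. A factor that was not called over 12 libraries may thus still have changed by 2-fold. Limits of detection from counts cover counting error only. Intervals of fold changes come from the edgeR fits and also include the spread between libraries. Samples were grouped by the labels, which say that the 3 samples of a group were independent.

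Members and lists were chosen with earlier results of these data known. Named are all 9 members, the 6 most abundant genes of each list, any gene called over 12 libraries and the 2 most like each member. Mrgprb5, Scn11a, Runx2, Tlx1 and other genes outside this rule were named after their values were seen. Lists of neutrophils, Schwann cells, endothelial cells, fibroblasts and pericytes were measured too, with summed CPM of 1.55 to 194, 1198 to 3659, 214 to 1206, 272 to 576 and 106 to 308.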

Additional observations from a re-analysis of the deposited data

How the results depend on the processing

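No member was called under any of 22 alternatives (1152 log2 fold changes, lowest adjusted p 0.149, for Runx1 in FN versus MN by limma-voom with sample quality weights). Of 54 member comparisons, 19 kept their sign under all alternatives, among them Runx1 in FN versus MN (0.29 to 0.75) and MT versus MN (0.22 to 0.37). Tlx3 in FN versus MN ran from -0.24 to 2.82.

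The count of members that met the study's criteria in FN versus MN was 1, and it was 0 with limma-voom, with only the groups compared, with 10 libraries, with 9 libraries and with only the groups compared among the 9, the last chosen after seeing the data. The labels do not say that replicate numbers pair samples. Between libraries of the same number, r of deviations from group means ran from -0.338 to 0.556. Libraries of unlike number were not compared, so these values cannot decide on pairing. With the replicate block the count in FN versus MN was 0. Leaving out 1 library gave 0 to 2 there, with 0 without any MN library or FN replicate 2 and 2 without FT replicate 2. It gave 0 to 1 in FT versus FN, FT versus MT and the averaged effect of the tumor, with 1 without FN replicate 2.

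Related genes called were 0 with edgeR over 12 libraries. They were 5 in FN versus MN and 1 in MT versus MN with limma-voom, 3 in FT versus MT with DESeq2, and 10 in FN versus MN and 1 in FT versus FN with only the groups compared among the 9 libraries (5.53% and 0.727% of all genes called). Leaving out 1 library gave 0 to 6 in FT versus MT, with 6 without FT replicate 1 (5.55% of all genes called). The cause was not tested. Of 384 counts, 364 stayed within 1.5 times. Under CPM 3 of the 9 kept their rank by RPKM. Scaling by library size alone moved the median of all genes in FT versus FN to -0.12 on the log2 scale. Counts were lowest for Runx3 (7 to 40 per library) and Pou4f2 (18 to 36).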
